A study of Mus musculus with 2 samples.

Results

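CD8 T cells that carried transcripts of granzymes D, E and F were picked out of 2 single-cell libraries of tumour-infiltrating T cells. They numbered 547 of 16770 kept cells, 316 in the mSTAR1302 library and 231 in the vehicle library. Kept cells had at least 1000 unique molecular identifiers (UMIs, each standing for 1 captured transcript), at least 500 genes and at most 10% mitochondrial UMIs. A CD8 cell had 2 or more UMIs of Cd3d, Cd3e and Cd3g together, at least 1 of Cd8a and Cd8b1, and none of Cd4 or Foxp3. A granzyme D/E/F cell also had 3 or more UMIs of Gzmd, Gzme and Gzmf together, and at most 2 UMIs each of the cycling genes (Mki67, Top2a and Birc5), the interferon-induced genes (Ifit1, Ifit3 and Rsad2) and the cytokine genes Il2, Il3 and Csf2. The cells were thus chosen by these measured UMI counts, and the levels of those genes describe the choice and were not tested.

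The cells came from BALB/c mice 4 to 6 weeks old that carried EMT6 tumours, a transplanted mouse mammary carcinoma line, under the skin. In the mSTAR1302 group, mice received 2 weekly cycles of mSTAR1302 into the peritoneum; in the control group they received vehicle. mSTAR1302 is known as a fusion of interleukin-2, a T cell growth factor, to an antibody that binds T cell receptors with the beta segment Vβ13-2 or Vβ13-3. Tumours of both groups entered at 80 to 150 mm3, and CD4+ and CD8+ cells were enriched on magnetic beads. Each group was 1 library. No difference therefore has a replicate check or a p-value. The 95% intervals hold for counting error alone. How many mice were pooled is not stated.

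The mSTAR1302 library held 96486469 UMIs and the vehicle library 110026997. Granzyme D/E/F cells had a median of 8048.5 UMIs in the mSTAR1302 library and 11469 in the vehicle library, and 2870936 and 2779947 UMIs in sum. Other CD8 cells numbered 5781 with mSTAR1302 and 1827 with vehicle, at medians of 6455 and 9703 UMIs. The libraries shared 17 barcodes of kept cells, and 2 barcodes of granzyme D/E/F cells were among the kept cells of the other library. Doublets were not called, and 13 granzyme D/E/F cells with mSTAR1302 and 15 with vehicle had above 20000 UMIs.

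Granzymes are serine proteases that killer cells store in lytic granules and release with perforin, which lets them into the target cell. Granzyme B cleaves after aspartate and activates caspases. The mouse has a further group of granzymes, C to G, encoded next to Gzmb, whose substrates are less well defined and which are known from T cells after strong or repeated stimulation. In GENCODE M21 on GRCm38, the assembly also named mm10, all of them lie on the minus strand of chromosome 14: Gzmb at chr14:56258838-56262260, Gzmc at chr14:56231441-56234656, Gzmf at chr14:56205263-56211417, Gzmg at chr14:56156582-56159579, Gzmd at chr14:56129556-56132608 and Gzme at chr14:56117626-56120625.

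Gzmd, Gzme and Gzmf are close copies, and the 250 bases before their starts are printed because transcripts of all 3 genes chose the cells. The sequences are from RefSeq on GRCm38.p6, read on the minus strand at chr14:56132594-56132843 for Gzmd, chr14:56120626-56120875 for Gzme and chr14:56211408-56211657 for Gzmf. The starts are those of RefSeq, which for Gzmd and Gzmf lie within the genes as GENCODE M21 draws them, so those windows overlap the GENCODE genes by a few bases. Capitals mark the letters TGTGGT, the core that Runx factors bind, on either strand.
Gzmd: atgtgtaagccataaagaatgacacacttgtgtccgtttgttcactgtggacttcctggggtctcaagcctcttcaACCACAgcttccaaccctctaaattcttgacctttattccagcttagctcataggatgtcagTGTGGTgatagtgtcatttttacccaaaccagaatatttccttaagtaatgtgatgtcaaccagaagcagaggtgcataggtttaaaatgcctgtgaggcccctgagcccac
Gzme: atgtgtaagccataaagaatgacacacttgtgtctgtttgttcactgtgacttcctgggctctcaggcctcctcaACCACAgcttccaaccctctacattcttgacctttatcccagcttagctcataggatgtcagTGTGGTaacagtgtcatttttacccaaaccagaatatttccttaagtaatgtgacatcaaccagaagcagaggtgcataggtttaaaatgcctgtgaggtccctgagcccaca
Gzmf: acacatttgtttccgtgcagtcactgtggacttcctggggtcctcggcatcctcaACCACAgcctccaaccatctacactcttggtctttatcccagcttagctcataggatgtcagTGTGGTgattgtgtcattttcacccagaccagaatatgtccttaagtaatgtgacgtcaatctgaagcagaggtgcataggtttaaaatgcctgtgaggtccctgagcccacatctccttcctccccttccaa
Over the bases that aligned, the windows were 95.58% identical between Gzmd and Gzme, 89.47% between Gzmd and Gzmf and 89.91% between Gzme and Gzmf. Each of the 3 held 2 Runx matches, 1 on each strand. So did the windows of Gzmg and Gzmc. Gzmb held matches in its own direction only, and Gzmn, another gene of the cluster, held none. Of 32851 mouse promoter windows of the same length 14.05% held at least 1 such match and 1.272% held 2 or more. No match was found in the 3 windows for the AP-1 letters TGANTCA, the NFAT letters GGAAAA or the T-box letters GGTGTGA, which 6.749%, 20.43% and 3.333% of all windows held. The E-box letters CANNTG were found in 3 of 3 windows and in 66.22% of all. Both strands were searched, and no match overlapped another in these windows. The last 300 bases of the transcripts, from which 3' libraries are read, were 95.37% identical between Gzmd and Gzme, 89.08% between Gzmd and Gzmf and 90.97% between Gzme and Gzmf. The assignment of reads that match several of these genes is not described, so the split between the 3 genes is less certain than their sum.

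Granzyme D/E/F cells were a smaller share of CD8 cells with mSTAR1302 than with vehicle, and about the same share of all kept cells. They made up 5.18% of 6097 CD8 cells (95% interval 4.64 to 5.77%) in the mSTAR1302 library and 11.2% of 2058 (9.89 to 12.7%) in the vehicle library, a difference of -6.04 percentage points (-7.57 to -4.62). With every cell thinned to 3000 UMIs before the cells were chosen, they made up 5.56% with mSTAR1302 and 10.7% with vehicle (-5.15 points, -6.61 to -3.78). Of all kept cells, they were 3.45% with mSTAR1302 and 3.03% with vehicle, a difference of 0.418 points (-0.124 to 0.953). The bead enrichment can set the shares of all kept cells. The values cannot tell a lower number of these cells from a higher number of the other CD8 cells.

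The limits on other programmes kept 74.9% of the CD8 cells that passed the granzyme count with mSTAR1302 and 79.1% with vehicle. Of 422 CD8 cells with 3 or more granzyme D/E/F UMIs in the mSTAR1302 library 16.1% were over the cycling limit, and of 292 in the vehicle library 17.1%. Among CD8 cells with fewer of these UMIs the shares over that limit were 11.9% in both libraries. Over the interferon limit were 1.42% of the 422 cells with mSTAR1302 and 0.685% of the 292 cells with vehicle, against 5.69% and 4.93% of the CD8 cells with fewer granzyme UMIs. Over the limit for Il2, Il3 and Csf2 were 38 of the 422 cells and 17 of the 292 (5.82%), against 3.19% and 6.96%. On this last limit the granzyme-rich cells were above the remaining CD8 cells with mSTAR1302 and below them in point value with vehicle, where the intervals (3.43 to 9.16% and 5.82 to 8.25%) overlapped.

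Gzmd and Gzme were spread over most of the cells, and Gzmf was concentrated in few. Levels are given as CPM, the UMIs of a gene over all UMIs of a population of cells, multiplied by 1000000. Gzmd stood at 1959 CPM (1908 to 2011) in granzyme D/E/F cells with mSTAR1302 and 1609 CPM (1562 to 1657) in those with vehicle. Gzme stood at 1167 CPM (1128 to 1207) with mSTAR1302 and 1060 CPM (1022 to 1099) with vehicle. Gzmf stood at 2159 CPM (2105 to 2213) with mSTAR1302 and 1915 CPM (1864 to 1967) with vehicle. A Gzmd UMI was found in 88.0% of the cells with mSTAR1302 and 88.3% with vehicle, and a Gzme UMI in 84.2% and 87.9%. A Gzmf UMI was found in 39.9% (34.4 to 45.5%) with mSTAR1302 and 37.7% (31.4 to 44.3%) with vehicle. The median cell had 8 Gzmd, 5 Gzme and 0 Gzmf UMIs with mSTAR1302, and 10, 7 and 0 with vehicle, while the richest cell had 563 Gzmf UMIs with mSTAR1302 and 651 with vehicle. The tenth of cells richest in Gzmf held 84.0% of its UMIs with mSTAR1302 and 86.2% with vehicle.

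**Figure D1:**
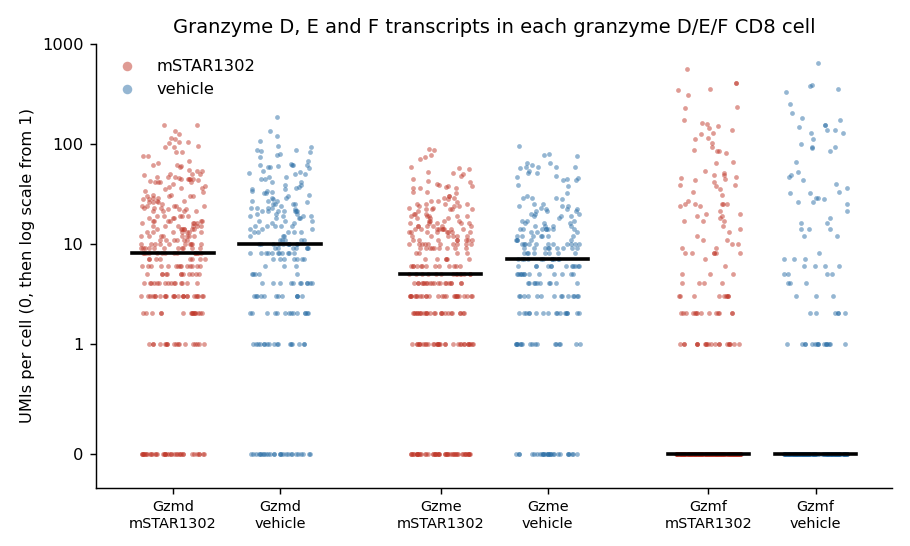
UMIs of Gzmd, Gzme and Gzmf in each granzyme D/E/F CD8 cell, mSTAR1302 left of vehicle for each gene; each point is 1 cell and the bar is the median. The Gzmf medians are 0 in both libraries, and single cells reach 563 and 651 Gzmf UMIs.

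The commonest pattern was Gzmd with Gzme and without Gzmf, in 52.2% of the cells with mSTAR1302 and 52.4% with vehicle. All 3 transcripts were found in 26.9% and 27.7%, Gzmf with exactly one of the others in 6.01% and 6.06%, and Gzmf alone in 6.96% and 3.90%. The libraries thus held these patterns at similar shares.

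RNA free in the droplets can give a cell a UMI of a gene it does not use. Macrophage-like cells, which should lack these genes, had a Gzmd UMI in 7.41% of 27 cells with mSTAR1302 (median 9564 UMIs) and in 6.25% of 128 cells with vehicle (median 17539 UMIs). Other CD8 cells had one in 6.02% and 9.20%. With each cell thinned to 3000 UMIs, a Gzmd UMI remained in 80.0% of granzyme D/E/F cells with mSTAR1302 and 74.6% with vehicle, and in 3.76% and 4.10% of other CD8 cells. It remained in 1 of 118 macrophage-like cells with vehicle (0.847%). For Gzmf the thinned shares were 3.86% and 3.76% of other CD8 cells, beside 4.35% of 23 and 4.24% of 118 macrophage-like cells. Thinned Gzmd with vehicle thus lay above the macrophage-like cells in point value, with overlapping intervals (3.22 to 5.15% and 0.0215 to 4.63%). Gzmf lay near them. These other CD8 cells include granzyme-rich cells that only the cycling, interferon or cytokine limit kept out. Other CD8 cells held 2927 Gzmd UMIs with mSTAR1302 and 2328 with vehicle, of which 205 and 91 were in cells within the limits. Their shares thus cannot be read as free RNA alone. Single UMIs outside the granzyme D/E/F cells are not read as expression.

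The cells just outside the granzyme limit were more numerous than those just inside. Within the other limits, 74 CD8 cells with mSTAR1302 and 31 with vehicle had exactly 2 granzyme D/E/F UMIs, and 30 and 12 had exactly 3. Far from the limit, 130 cells with mSTAR1302 and 109 with vehicle had 10 to 39 UMIs, and 91 and 69 had 40 or more. Cells with 40 or more held 51.7% and 47.5% of all Gzmd, Gzme and Gzmf UMIs of the CD8 cells.

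The label's markers fitted the cells in part. Klrd1, which encodes the receptor chain CD94, had a UMI in 98.1% of the cells with mSTAR1302 and 99.1% with vehicle, against 82.0% and 88.2% of other CD8 cells. Macrophage-like cells had one in 7.41% and 40.6%. Pdcd1, which encodes the inhibitory receptor PD-1, had one in 76.6% and 87.4%, and Nrgn, a calmodulin-binding protein best known from neurons, in 70.6% and 86.1%. Slc17a6, a vesicular glutamate transporter, had one in 32.3% and 51.5%. Set against other CD8 cells at 3000 UMIs per cell, Klrd1 was found in 89.5% of granzyme D/E/F cells against 67.5% with mSTAR1302, and in 95.6% against 77.3% with vehicle. Pdcd1 was found in 55.4% against 15.8% with mSTAR1302, and in 52.6% against 38.9% with vehicle. Nrgn was found in 52.5% of granzyme D/E/F cells against 9.25% with mSTAR1302, and in 66.2% against 38.4% with vehicle. Slc17a6 was found in 20.7% against 3.45% with mSTAR1302, and in 28.1% against 25.2% with vehicle. In the vehicle library Slc17a6 stood at 149.6 CPM (135.6 to 165) in granzyme D/E/F cells and 160.0 CPM (155 to 166) in other CD8 cells, so there it did not set the cells apart.

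Few of these cells carried the receptor segments that mSTAR1302 binds, which the rule did not use. Trbv13-2 (chr6:41121396-41121832) and Trbv13-3 (chr6:41130147-41130585) gave 14.7% of 150 Trbv UMIs (9.43 to 21.4%) in granzyme D/E/F cells with mSTAR1302 and 11.8% of 76 (5.56 to 21.3%) in those with vehicle, a difference of 2.82 points (-7.50 to 11.4). In other CD8 cells the same segments gave 46.1% of 1964 Trbv UMIs with mSTAR1302 and 14.3% of 657 with vehicle. Granzyme D/E/F cells lay -31.5 points (-36.7 to -24.6) from other CD8 cells in the mSTAR1302 library and -2.47 points (-8.66 to 7.02) in the vehicle library. Counted by cell, with mSTAR1302 the granzyme D/E/F cells were 20 of 783 CD8 cells in which either segment was seen (2.55%), and 83 of 769 with only another Trbv segment (10.8%), a difference of -8.24 points (-10.8 to -5.82). In the vehicle library they were 6 of 82 (7.32%) and 47 of 431 (10.9%), a difference of -3.59 points (-8.71 to 4.58). The share among cells with another Trbv segment was thus 10.8% with mSTAR1302 and 10.9% with vehicle.

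Single segments rested on few cells. Trbv2 gave 34.7% of the Trbv UMIs of granzyme D/E/F cells with mSTAR1302 (52 UMIs in 31 cells), against 6.92% in other CD8 cells. With vehicle it gave 15.8% in granzyme D/E/F cells, against 10.2%. Trbv5 gave 3.33% in granzyme D/E/F cells with mSTAR1302 and 19 of 76 UMIs, in 15 cells, in those with vehicle. Trbv19 gave 12.7% and 17.1%. Clonal relations between cells cannot be read from 3' libraries, and the 3' end rarely reaches the V segment: 103 of 316 granzyme D/E/F cells with mSTAR1302 and 53 of 231 with vehicle had any Trbv UMI.

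**Figure D2:**
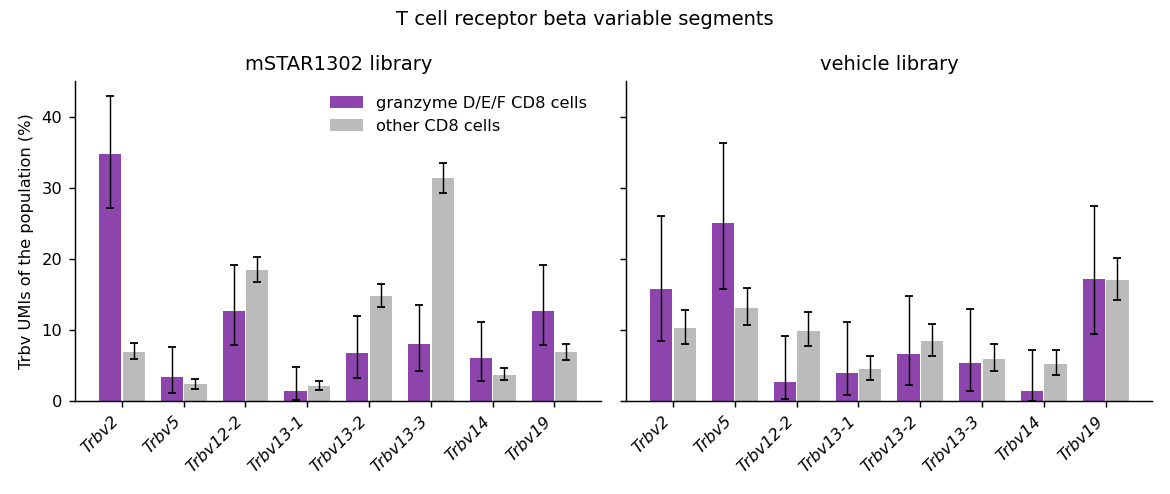
Share of Trbv UMIs (%) from 8 segments, mSTAR1302 library left and vehicle library right, granzyme D/E/F CD8 cells beside other CD8 cells; bars are shares and whiskers exact 95% intervals for counting error. Trbv13-3 gives 12 of 150 UMIs in granzyme D/E/F cells and 31.4% in other CD8 cells with mSTAR1302, and at 5.26% and 5.94% with vehicle.

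Against the other CD8 cells of their library, granzyme D/E/F cells differed in more genes with mSTAR1302 than with vehicle. A gene was counted as apart when its CPM, with 1 CPM added, differed at least 2-fold, among genes with 20 CPM or more in either population and without the genes of the rule. In the mSTAR1302 library 170 of 5182 genes were higher (3.28%) and 216 lower (4.17%), together 386 (7.45%). In the vehicle library 20 of 5506 were higher (0.363%) and 123 lower (2.23%), together 143 (2.6%). The rule keeps cycling and interferon-rich cells out of the granzyme D/E/F cells only: of 23 cycling genes at 20 CPM or more 18 were lower with mSTAR1302 and 15 of 23 with vehicle, as the choice requires. Set against other CD8 cells within the same limits, 191 of 5112 genes were higher (3.74%) and 156 lower (3.05%) with mSTAR1302, together 347 (6.79%). With vehicle 27 of 5433 were higher (0.497%) and 71 lower (1.31%), together 98 (1.8%). The levels that follow, up to the comparison between the libraries, use these other CD8 cells within the limits, 4551 with mSTAR1302 and 1380 with vehicle. Where all other CD8 cells are used instead, they are named so.

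Among genes counted in both libraries, those apart with vehicle were mostly apart with mSTAR1302 too. The 27 higher and 71 lower with vehicle also include genes that did not reach 20 CPM with mSTAR1302, and these are left out here. Among 4952 genes counted in both libraries 15 were higher in both, which was 8.29% of the 181 higher with mSTAR1302 and 88.2% of the 17 higher with vehicle. Lower in both were 25 genes, 21.4% of the 117 lower with mSTAR1302 and 73.5% of the 34 lower with vehicle. The genes higher in both were Gzmc, Serpinb9b, Spp1, Upp1, Gipc2, Myo10, Slc16a11, Gm156, Styk1, Serpine2, Gstm5, Camk2n1, Prf1, Jdp2 and Ccdc184.

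Of the lytic genes, Gzmc and Prf1 were higher in both libraries. Gzmc, the neighbour of Gzmb, stood at 361.6 CPM in granzyme D/E/F cells and 11.2 CPM in other CD8 cells with mSTAR1302, 32.2-fold (28.5 to 36.5), and at 167.6 and 4.26 CPM with vehicle, 39.4-fold (29.8 to 53.0). One cell held 41.0% of the Gzmc UMIs of granzyme D/E/F cells with mSTAR1302, and one held 20.4% with vehicle. Prf1, which encodes perforin, stood at 520.4 and 122.1 CPM with mSTAR1302, 4.26-fold (4.01 to 4.53), and at 401.4 and 182.8 CPM with vehicle, 2.20-fold (2.04 to 2.36). Gzmb did not follow Gzmd in both libraries. It stood at 1125 CPM in granzyme D/E/F cells and 1370 CPM in other CD8 cells with mSTAR1302, and at 484.2 and 229.0 CPM with vehicle, where it was 2.11-fold higher (1.98 to 2.26). Gzma, a tryptase granzyme encoded on chromosome 13, stood at 219.8 and 1276 CPM with mSTAR1302, 0.172-fold (0.159 to 0.186). With vehicle it stood at 46.4 and 79.3 CPM, short of 2-fold, and 1 cell held 123 of the 129 UMIs of granzyme D/E/F cells. Gzmk, also on chromosome 13, stood at 16.7 and 94.5 CPM with mSTAR1302 and at 1.44 and 21.5 CPM with vehicle. Of the 19 genes of the lytic granule and death ligand list, 4 were higher with mSTAR1302 (Prf1, Cst7, Tnfsf10 and Stx11) and 1 with vehicle (Prf1), and Ctsl, which encodes cathepsin L, was lower in both.

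Of the serpins that inhibit granzymes, Serpinb9b was higher in both libraries. Serpinb9b, a mouse relative of the granzyme B inhibitor Serpinb9, stood at 142.8 and 12.6 CPM with mSTAR1302, 11.3-fold (9.82 to 13.0), and at 156.1 and 20.6 CPM with vehicle, 7.58-fold (6.50 to 8.86). It was found in 22.5% of granzyme D/E/F cells with mSTAR1302 and 29.9% with vehicle. Of the 5 serpins of the list at 20 CPM or more, 4 were at least 2-fold higher with mSTAR1302 (Serpinb9b, Serpinb6a, Serpinb6b and Serpina3g) and 1 with vehicle (Serpinb9b), beside 3.74% and 0.497% of all genes. Serpine2, a secreted inhibitor of serine proteases such as thrombin, belonged to the genes higher in both libraries.

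Other genes higher in both libraries were of varied function. Spp1, which encodes the secreted protein osteopontin, stood at 548.3 and 124.2 CPM with mSTAR1302, 4.41-fold (4.16 to 4.68), and at 1229 and 325.0 CPM with vehicle, 3.78-fold (3.61 to 3.96). Near-empty droplets held Spp1 at 207 CPM with mSTAR1302 and 313 CPM with vehicle. Upp1, a uridine phosphorylase, was 8.34-fold higher with mSTAR1302 and 3.40-fold with vehicle. Myo10, an unconventional myosin of filopodia, was 7.59-fold and 2.63-fold higher. Gipc2, a PDZ domain protein, was 18.6-fold and 3.04-fold higher. Of the 7 genes of the shared set given here with both folds, Prf1, Serpinb9b, Spp1, Upp1, Myo10 and Gipc2 had the larger fold with mSTAR1302. Gzmc had the larger fold with vehicle in point value, with overlapping intervals. Against all other CD8 cells its order was reversed, at 12.1-fold (11.2 to 13.2) with mSTAR1302 and 3.94-fold (3.51 to 4.41) with vehicle.

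**Figure D3:**
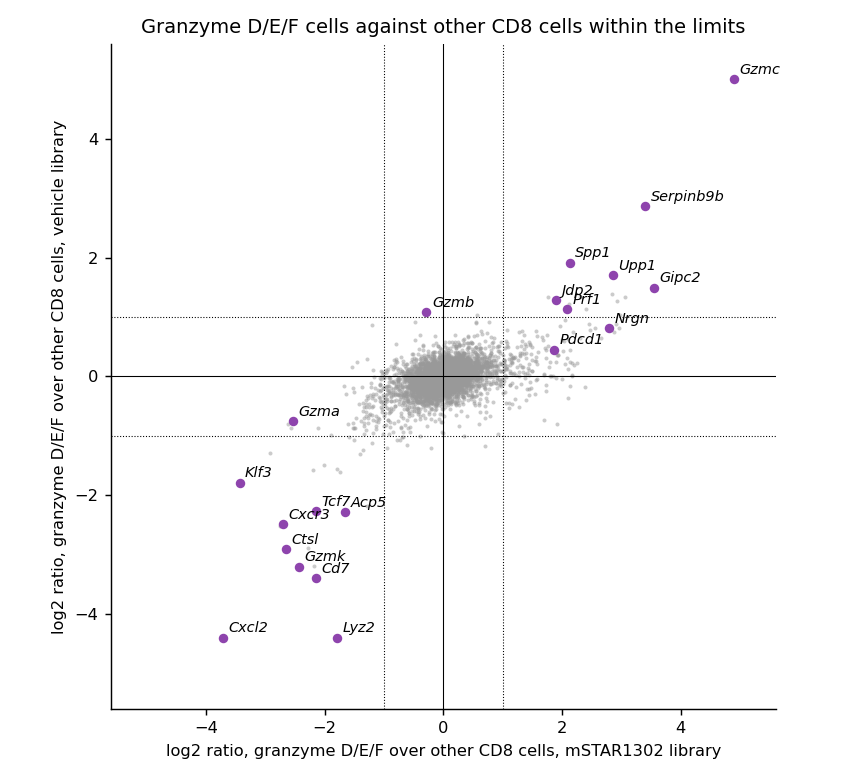
Log2 ratio of CPM (1 CPM added) of granzyme D/E/F CD8 cells over other CD8 cells within the limits, mSTAR1302 library on the x axis and vehicle library on the y axis, for 5028 genes; dotted lines mark 2-fold, and the labelled genes were picked after their values were seen. Gzmc and Serpinb9b lie far to the upper right, and Cxcl2, Tcf7 and Gzmk to the lower left.

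Genes lower in both libraries included those of naive and circulating T cells. Tcf7, which encodes the transcription factor TCF-1 of naive and stem-like T cells, stood at 11.8 and 55.6 CPM with mSTAR1302, 4.70-fold lower (3.35 to 6.81), and at 10.8 and 55.8 CPM with vehicle, 5.18-fold lower (3.59 to 7.73). S1pr1, the receptor that guides T cells out of tissue, stood at 5.22 and 31.4 CPM with mSTAR1302 and at 1.44 and 20.9 CPM with vehicle. Of the stem-like and naive list, 9 of 15 genes were lower with mSTAR1302 and 5 of 14 with vehicle; Tcf7, Slamf6, S1pr1 and Klf2 were among those lower in both. Ccr7 and Bach2, also of this list, were instead 2.95-fold and 2.13-fold higher with mSTAR1302, and with vehicle stood at 393.9 and 482.8 CPM and at 87.4 and 87.8 CPM.

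Of the chemokine receptor and homing list, 5 of 9 genes were lower with mSTAR1302 and 2 higher (Ccr7 and Cx3cr1), and 4 of 10 were lower with vehicle and 0 higher. Of the integrin and residence list, 3 of 10 were lower with mSTAR1302 and 1 higher (Itgav), and 3 of 11 were lower with vehicle and 0 higher. Over all genes 3.05% were lower with mSTAR1302 and 1.31% with vehicle. Cxcr3, a receptor for interferon-induced chemokines, stood at 7.66 and 55.5 CPM with mSTAR1302 and at 3.60 and 24.9 CPM with vehicle. Cxcr4 and Itga4, an alpha integrin chain, were 5.204-fold and 7.18-fold lower with mSTAR1302, and 9.21-fold and 6.31-fold lower with vehicle. Ccl5, a chemokine of effector CD8 cells, stood at 730.1 and 3306 CPM with mSTAR1302, 4.53-fold lower (4.34 to 4.73), and at 146.8 and 1359 CPM with vehicle, 9.26-fold lower (8.39 to 10.2). Lyz2 and Cxcl2 were also lower in both, and with them the macrophage markers. Those 8 markers summed to 19.2 CPM in granzyme D/E/F cells and 56.0 CPM in all other CD8 cells with mSTAR1302, and to 59.7 and 654 CPM with vehicle; their part in the lower Lyz2, Cxcl2 and Ctsl was not tested.

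Of 16 inhibitory receptors at 20 CPM or more 5 were higher with mSTAR1302 (Pdcd1, Havcr2, Lag3, Cd200 and Nt5e) and 1 lower (Lilr4b), and with vehicle 0 of 16 were apart. Over all genes 3.74% were higher with mSTAR1302 and 0.497% with vehicle, so a count of 0 with vehicle is near that background, and the difference between the libraries' ratios was not tested. Of the exhaustion and effector transcription factors, 4 of 22 were higher with mSTAR1302 (Tox, Nr4a2, Zeb2 and Irf8) and 0 of 21 with vehicle, and Maf was lower in both. Pdcd1 stood at 302.3 CPM in granzyme D/E/F cells and 82.6 CPM in other CD8 cells with mSTAR1302, 3.66-fold (3.39 to 3.96), and at 332.0 and 242.8 CPM with vehicle, 1.37-fold (1.27 to 1.47). Lag3 stood at 554.9 and 144.5 CPM with mSTAR1302 and at 412.2 and 320.7 CPM with vehicle. Tox, which encodes a nuclear factor needed by exhausted T cells, stood at 49.5 and 19.0 CPM with mSTAR1302 and at 91.0 and 86.5 CPM with vehicle. For Pdcd1, Lag3 and Tox the granzyme D/E/F cells of both libraries lay closer together than the other CD8 cells did. Havcr2 went the other way, at 175.2 and 79.0 CPM with mSTAR1302 and 65.5 and 55.0 CPM with vehicle. Irf8 and Areg, named after their values were seen, lay as Pdcd1 did: Irf8, a transcription factor of activated T and myeloid cells, stood at 443.1 and 102.1 CPM with mSTAR1302 and 495.3 and 319.7 CPM with vehicle, and Areg, which encodes the growth factor amphiregulin, at 207.6 and 31.97 CPM with mSTAR1302 and 367.3 and 233.3 CPM with vehicle.

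Of the killer lectin-like and NK receptor list, 3 of 7 genes were higher with mSTAR1302 (Klrd1, Klre1 and Fcer1g), and with vehicle 0 of 9 were higher and 2 lower (Tyrobp and Fcgr2b). Fcer1g, a signalling chain of Fc and NK receptors, stood at 57.5 and 12.2 CPM with mSTAR1302 and at 108.6 and 79.9 CPM with vehicle. Klre1, an NK lectin-like receptor, stood at 111.5 and 23.8 CPM with mSTAR1302 and at 158.6 and 94.4 CPM with vehicle. Kit, the stem cell factor receptor best known from mast cells and progenitors, stood at 97.9 and 17.1 CPM with mSTAR1302 and at 128.4 and 69.6 CPM with vehicle. The NK gene Ncr1 and the mast cell genes Cpa3, Ms4a2 and Gata2 were at 0 in granzyme D/E/F cells of both libraries. Klra4, Klra8 and Ms4a2 were at 0 there and in other CD8 cells of both libraries too, and so tell nothing apart. The 7 NK markers summed to 66.5 CPM in granzyme D/E/F cells and 42.2 CPM in all other CD8 cells with mSTAR1302, and to 125 and 148 CPM with vehicle. Their part in these receptors was not tested. The 6 mast cell markers, also set against all other CD8 cells, summed to 98.9 and 18.3 CPM with mSTAR1302 and to 129 and 68.3 CPM with vehicle. Nearly all of it was Kit, which in all other CD8 cells stood at 17.9 CPM with mSTAR1302 and 67.5 CPM with vehicle. All 8 T cell markers stood at 20 CPM or more, but Cd3d, Cd3e and Cd3g among them are genes of the rule that chose the cells. The gamma delta genes Trdc and Tcrg-C1 were at 0 with mSTAR1302, and the 7 genes of that list summed to 5.57 CPM with mSTAR1302 and 14.4 CPM with vehicle.

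Within the limits, levels moved with the number of granzyme D/E/F UMIs. Across cells with 0, 1 to 2, 3 to 9, 10 to 39 and 40 or more such UMIs, Tcf7 stood at 58.0, 41.7, 25.8, 9.53 and 3.82 CPM with mSTAR1302 and at 58.3, 43.1, 15.7, 14.3 and 3.16 CPM with vehicle. Gzmc stood at 7.81, 31.7, 81.2, 90.5 and 841 CPM with mSTAR1302 and at 3.802, 6.63, 8.73, 63.7 and 401.0 CPM with vehicle. Prf1 was highest at 40 or more UMIs, at 803 CPM with mSTAR1302 and 599 CPM with vehicle. Gzmb did not run one way in either library: it stood at 1392, 1239, 596, 561 and 2084 CPM with mSTAR1302 and at 229.8, 224.8, 181.5, 281.7 and 935 CPM with vehicle. The cells with 40 or more granzyme UMIs had medians of 10775 total UMIs with mSTAR1302 and 12988 with vehicle, against 5723 and 9072 in cells with 0, and the part of depth was not tested.

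**Figure D4:**
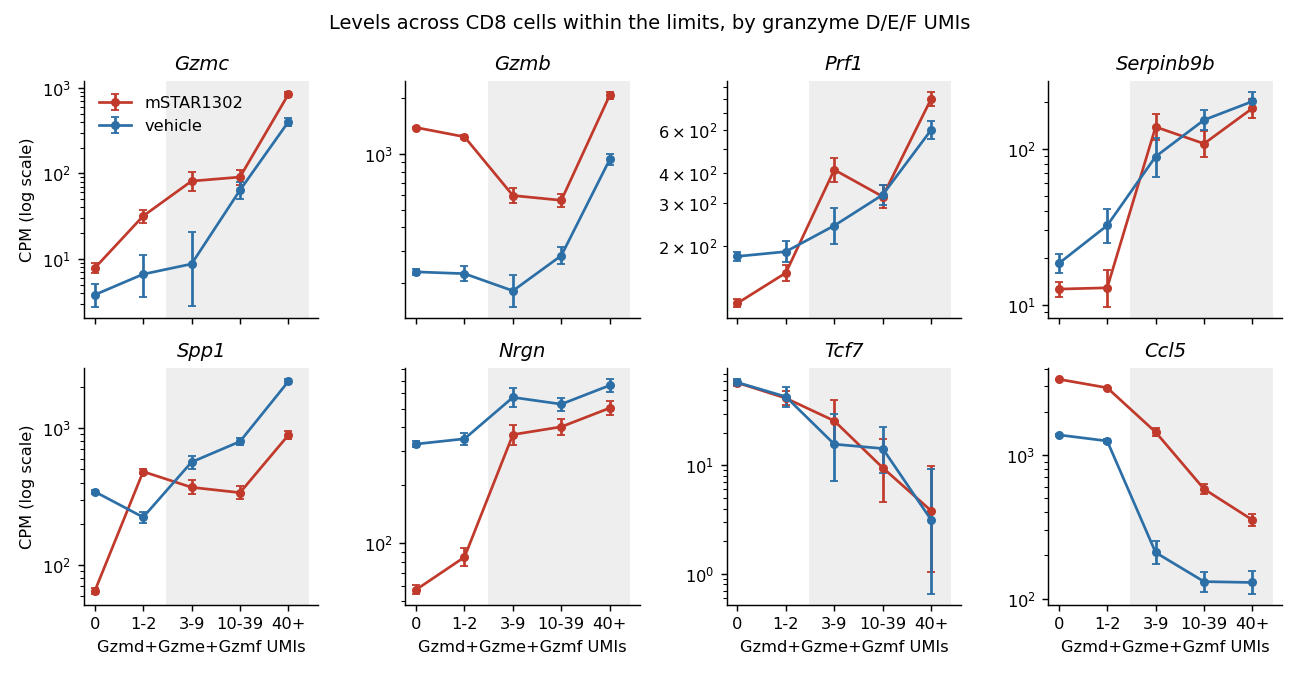
CPM (log scale) of 8 genes in CD8 cells within the limits, by their summed Gzmd, Gzme and Gzmf UMIs; points are UMIs pooled over the cells of a library, whiskers exact 95% Poisson intervals, and grey marks the granzyme D/E/F cells. Gzmc and Prf1 are highest and Tcf7 and Ccl5 lowest at 40 or more UMIs in both libraries.

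The granzyme D/E/F cells were also described by whether they held a Gzmf UMI, a split made after the data were seen. Gzmf is a gene of the rule, so cells without it had to pass on Gzmd and Gzme together, and the values are a description only. The 126 cells with a Gzmf UMI in the mSTAR1302 library held Gzmc at 829 CPM, against 33.2 CPM in the 190 without, and 1 cell held 426 of the 1038 Gzmc UMIs. In the vehicle library the 87 cells with Gzmf held it at 410.0 CPM, against 6.00 CPM in the 144 without. Gzmb stood at 1582 against 804.5 CPM with mSTAR1302 and at 716 against 329.8 CPM with vehicle. Spp1 stood at 822 against 356.3 CPM with mSTAR1302 and at 1872 against 800.4 CPM with vehicle. Havcr2, which encodes the inhibitory receptor TIM-3, stood at 218.7 against 144.7 CPM with mSTAR1302 and at 107.0 against 37.8 CPM with vehicle. Serpinb9b ran the other way, at 76.0 against 189.7 CPM with mSTAR1302 and at 139.4 against 167.3 CPM with vehicle. Gzmd differed less, at 2042 against 1901 CPM with mSTAR1302 and 1809 against 1476 CPM with vehicle. Median depths were 8579.5 against 7663.5 UMIs with mSTAR1302 and 12279 against 10886 with vehicle.

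Between the libraries, granzyme D/E/F cells differed in few genes. With mSTAR1302 over vehicle 23 of 5279 genes were at least 2-fold higher (0.436%) and 46 lower (0.871%), together 69 (1.31%). With the median gene of the library ratio set to 0 in place of -0.12 on the log2 scale, 29 were higher and 33 lower. In all other CD8 cells, inside and outside the limits, 61 of 5416 genes were higher (1.13%) and 227 lower (4.19%), together 288 (5.32%). The levels of other CD8 cells that follow are of this full set, unless the limits are named. The counts of both populations come from the same 2 libraries, and the rule chose granzyme D/E/F cells by the same transcripts in each.

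Among the genes higher with mSTAR1302 were Gzmb, Gzmc, Havcr2, Ltb4r1, Il1r2 and Ccl5. Gzmb stood at 1125 CPM with mSTAR1302 and 484.2 CPM with vehicle, 2.32-fold (2.18 to 2.48). In all other CD8 cells it stood at 1337 and 262.1 CPM, 5.10-fold (4.96 to 5.24). Near-empty droplets held Gzmb at 1092 CPM with mSTAR1302 and 616 CPM with vehicle. Gzmc stood at 361.6 and 167.6 CPM, 2.16-fold (1.93 to 2.41), in 20.9% and 19.0% of cells. Without its richest cell in each library 612 and 371 UMIs were left, short of 2-fold, so its place among these genes rests on single cells. Havcr2 stood at 175.2 CPM with mSTAR1302 and 65.5 CPM with vehicle, 2.68-fold (2.25 to 3.19), in 45.9% and 26.4% of cells. Ltb4r1, a leukotriene B4 receptor, stood at 27.5 and 4.32 CPM, 6.37-fold (3.45 to 12.9). Il1r2, a decoy receptor for interleukin-1, stood at 168.2 and 54.7 CPM, 3.08-fold (2.56 to 3.72), and in all other CD8 cells at 40.3 and 40.57 CPM. Ccl5 stood at 730.1 and 146.8 CPM, 4.97-fold (4.47 to 5.54), beside 1933 and 503 CPM in near-empty droplets. Lef1, Ifi202b, Spata7, Ccr2 and Ankrd37 were also among the 12 highest, between 2.34-fold and 3.87-fold. Spata7 was found in fewer of the cells, 4.11% with mSTAR1302 and 7.79% with vehicle, and 1 cell held 30.2% of its UMIs with mSTAR1302.

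Some of the largest ratios rested largely on single cells, or stood beside high levels in near-empty droplets. Il13, which encodes a type 2 cytokine, had 130 UMIs with mSTAR1302 and 1 with vehicle, and 80 of the 130 were in 1 cell. It stood at 45.3 and 0.360 CPM, beside 43.2 and 1.40 CPM in near-empty droplets. Gzma had 631 UMIs with mSTAR1302 and 129 with vehicle, of which 123 were in 1 cell, and near-empty droplets held it at 916 and 17.6 CPM. Nupr1 had 6 UMIs with mSTAR1302 and 86 with vehicle, 85 of them in 1 cell. Cald1, a smooth muscle and fibroblast gene, had 8 UMIs with mSTAR1302 and 84 with vehicle, 71 of them in 1 cell. Without the cell richest in the gene in each library, Nupr1 turned to a log2 ratio of 0.82, while Il13 at 4.21, Gzma at 5.83 and Cald1 at -2.52 kept their direction.

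Lower with mSTAR1302 were Xcl1, Dapl1 and a group of less abundant genes. Xcl1, a chemokine that draws cross-presenting dendritic cells, stood at 79.4 CPM with mSTAR1302 and 373.7 CPM with vehicle, 4.71-fold lower (4.07 to 5.46), in 19.9% and 46.8% of cells. In all other CD8 cells it stood at 166.6 and 907.6 CPM, and in those within the limits at 80.6 and 716.9 CPM. Near-empty droplets held Xcl1 at 137 and 373 CPM, apart in the same direction. These levels lay above the granzyme D/E/F cells with mSTAR1302 and close to them with vehicle. Dapl1, a death-associated protein relative known from memory-like T cells, stood at 9.405 and 102.2 CPM, 10.9-fold lower (7.31 to 16.8). It was found in 3.16% and 14.3% of cells, and near-empty droplets held it at 12.9 and 46.9 CPM, apart in the same direction. Dapk2, a calmodulin-regulated death-associated kinase, stood at 7.66 and 31.3 CPM, 4.08-fold lower (2.53 to 6.85), in 6.33% and 25.1% of cells. Plk2, Lpcat4, Atp2b2, Ccrl2 and Chn2 were between 3.23-fold and 3.64-fold lower. Near-empty droplets held Plk2 at 9.63 and 32.5 CPM and Ccrl2 at 16.1 and 61.1 CPM, apart in the same direction. So were Lpcat4 and Atp2b2 there, while Chn2 was near level and Dapk2 ran the other way. Lyz2 stood at 6.97 and 32.7 CPM, beside 177.9 and 982 CPM in near-empty droplets. Spp1 was lower with mSTAR1302 too, 0.446-fold (0.420 to 0.474), as was Penk, which encodes enkephalin, at 0.430-fold (0.331 to 0.556).

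**Figure D5:**
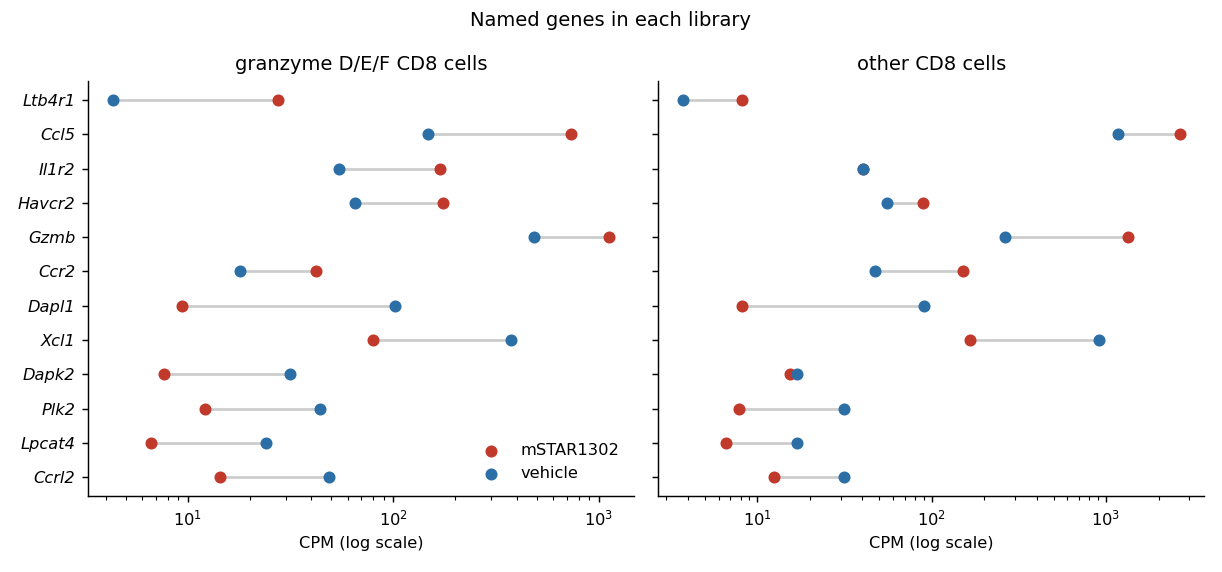
CPM (log scale) of 12 named genes in granzyme D/E/F CD8 cells (left) and all other CD8 cells (right). Each point is 1 library and the line joins the libraries. Gzmb and Ccl5 are higher and Xcl1 and Dapl1 lower with mSTAR1302 in both populations, while Il1r2 is apart in granzyme D/E/F cells and level in other CD8 cells.

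By list, few genes were apart between the libraries in granzyme D/E/F cells, as over all genes, where 1.31% were apart; counts of 0 in short lists are what that share gives. Of the granzyme B to G cluster 2 of 3 genes at 20 CPM or more outside the rule were higher (Gzmb and Gzmc). Gzmc was short of 2-fold without its richest cell in each library. Of the other granzymes 1 of 1 was higher (Gzma). Of 18 lytic granule and death ligand genes and 5 serpins 0 were apart, with medians of -0.15 and -0.13 on the log2 scale beside -0.12 over all genes. Of 17 inhibitory receptors 1 was higher (Havcr2), of 21 exhaustion and effector transcription factors 1 was higher (Prdm1), and of 33 genes of T cell receptor signalling, 31 at 20 CPM or more, 1 was lower (Egr3). Of 17 genes of the interleukin-2 receptor and STAT5 list 0 were apart, with a median of -0.02. The 17 glycolysis genes had a median of 0.38 and the 10 hypoxia genes 0.38, with 1 of these 27 genes past 2-fold (Ankrd37). Of 19 interferon-induced genes 0 were apart, with a median of 0.02, in cells that the rule had kept low in 3 genes of that response.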

How the data were processed

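The deposited files hold raw UMI counts per gene and cell barcode, 1 matrix for each of the 2 libraries, made with 10x 3' chemistry. Per the submitters' processing notes the authors used Cell Ranger 6.0.1, FastQC, MultiQC 1.9, Seurat and the mm10 genome, while the file headers name Cell Ranger 4; the annotation release is not stated. No cell annotation was used, and no other per-sample columns were left out (0).

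Cells were chosen by the stated limits with Python 3.11.15, NumPy 2.4.6, SciPy 1.17.1 and pandas 2.3.3, and drawn with matplotlib 3.10.9. UMIs were summed over cells per library and scaled to CPM. Log2 ratios used a pseudocount of 1 CPM and genes of at least 20 CPM in either population; fold changes in the text are ratios of CPM without it. Intervals at the 95% level are exact Poisson for levels, exact conditional binomial for folds, Clopper-Pearson for shares and Newcombe for differences of shares. PCR duplicates are collapsed by UMI, and the intervals cover counting error only. The interval code was tested on simulated data. Near-empty droplets had 100 to 500 UMIs. Macrophage-like cells had no Cd3 UMI and at least 5 UMIs of 8 macrophage markers. Thinning drew 3000 UMIs per cell and left out shallower cells, 11 granzyme D/E/F and 647 other CD8 cells with mSTAR1302, and 3 and 96 with vehicle.

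Named genes were the 12 highest and 12 lowest log2 ratios between the libraries, the 12 highest and 12 lowest in both libraries against other CD8 cells, the members of fixed lists and the label's markers, without receptor segments, mitochondrial and ribosomal genes. The 12 lowest in both were mostly cycling and histone genes, a programme that the rule limits through Mki67, Top2a and Birc5, beside Cxcl10 and Cxcl2. Genes lower than in cells within the same limits were therefore named instead, chosen after their values were seen. The cells, markers and lists were chosen with earlier results of these data known. Some genes that the rule names are not reported here. Gene positions are from GENCODE M21.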

Additional observations from a re-analysis of the deposited data

How the results depend on the processing

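No paired analysis was possible because each group is 1 library, so no library could be left out. Over 14 alternatives, 13 of them planned, 98 values of the main results were recomputed, of which 76 stayed within their limits and 22 moved. The limits were the main interval for differences of shares, and 1.5-fold of the main count for counts of genes. Counts of genes cannot change sign, and a difference whose interval held 0 was not read for sign. Only the remaining differences of shares could thus reverse, and 0 of them did. The difference in share was -7.85 points against CD8 cells within the limits. Between the libraries (23 genes higher, 46 lower), 75 were higher with a minimum of 2 granzyme UMIs, 58 higher and 195 lower after thinning, and 86 lower without cells carrying markers of other cell types. They were 13 and 28 with a pseudocount of 5 CPM, 40 and 135 at a minimum of 10 CPM, and 267 and 810 with no minimum. Against other CD8 cells with mSTAR1302 (170 higher, 216 lower), 362 were lower at 10 CPM, and 462 higher and 838 lower with no minimum. With vehicle (20 higher, 123 lower), 62 were lower without cells above 20000 UMIs, 53 higher after thinning, 34 higher without cells carrying other markers, and 71 lower within the limits. They were 33 and 255 at 10 CPM, and 99 and 907 with no minimum. Lower minimums add genes with few UMIs, and thinning leaves fewer UMIs per gene; for the others the cause was not tested.

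Of 912 values of named genes under alternatives, 898 kept their sign and 859 stayed at least 2-fold apart in the same direction. These were the 12 highest and 12 lowest genes between the libraries, and in both libraries against all other CD8 cells. Most of the 12 lowest in both were cycling genes, whose direction the rule favours. Genes chosen against cells within the limits were not recomputed in that comparison. Nupr1, from 1 vehicle cell, turned to log2 ratios of 1.20 at 5% mitochondrial UMIs, 0.87 without cells above 20000 UMIs, 1.15 and 1.95 at minimums of 2 and 10 granzyme UMIs, 1.36 without cells carrying other markers and 0.82 without its richest cell. Cald1 turned to 1.55 at the minimum of 2. Against CD8 cells within the limits, cycling genes turned: Hist1h3c 0.26, Cenpf 0.72, Ube2c 0.22 and Hist1h2ap 0.016 with mSTAR1302, and Pclaf 0.12, Ccna2 0.12 and Hist1h2ap 0.41 with vehicle. Leaving out the cell richest in each gene, an alternative chosen after seeing the data, gave 21 higher and 44 lower genes between the libraries, 152 and 241 against other CD8 cells with mSTAR1302 and 15 and 156 with vehicle. Gzmc then stood at log2 ratios of 2.81 with mSTAR1302 and 1.64 with vehicle over all other CD8 cells, beside 3.56 and 1.95 with its richest cell kept.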
